A study of Sus scrofa with 6 samples.

Results

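Potassium channel subunits were read out as the genes whose name in the deposited tables begins with KCN followed by letters and a number, which gave 84 genes of 28965 in all. By subunit class they are 37 voltage-gated, 14 inward rectifier, 14 tandem-pore, 8 calcium- or sodium-activated and 10 accessory genes, and KCNU1, a sperm channel gene, falls outside these classes. No sodium-activated channel gene (KCNT) was among the 84, so the calcium- or sodium-activated class held KCNM and KCNN genes only. Another 3 rows that carry an Ensembl identifier in place of a name are paired with KCNH1, KCNMB2 and KCNE1 in the gene name table, and are not counted among the 84; they held 46, 80 and 131 reads over the 6 libraries. The tissue was cervical spinal cord, which the sample titles place under brain, taken at 140 days from 6 male pigs. There were 3 wild-type animals and 3 that carried a UBE3A deletion inherited from the mother, with 1 RNA library per animal. UBE3A encodes a ubiquitin ligase, and in mouse and human neurons its paternal copy is silenced, so that loss of the maternal copy leaves little of it there, while most other cells use both copies. The deletion was inherited and thus present in every cell type of the tissue, and the libraries were made from whole tissue.

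Potassium channels let potassium leave the cell down its gradient and so set the resting potential, end the action potential and shape firing. Voltage-gated subunits assemble as tetramers in axons and cell bodies, with relatives that are silent alone and only modify a partner. Inward rectifiers of glia take up the potassium that neurons release, tandem-pore subunits carry the background leak, calcium-activated channels couple calcium entry to the membrane potential in neurons and in vessel muscle, and accessory subunits alter the gating and traffic of the pore subunits.

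The libraries held 17181003 to 22492366 exon reads, of which 21055 to 44139 fell on the 84 genes. Levels of a gene across libraries are given as counts per 1000000 reads (CPM) after TMM scaling, a correction for library composition, and levels between genes as the authors' TPM, which divide by length and scale each library to 1000000. Differences are log2 fold changes of deletion over wild type from edgeR's quasi-likelihood test. The p-values have Benjamini-Hochberg adjustment over all 14566 genes that passed a filter on low counts, and a gene is called at an adjusted p under 0.05. The standard error (SE) is not an output of that test. It was derived from the log2 fold change and the test's F statistic, and the 95% intervals from this SE and a t quantile. UBE3A measured 57.0, 65.5 and 60.6 CPM in the wild-type libraries and at 21.4, 27.1 and 21.4 CPM in the deletion libraries, and the groups did not overlap. Its level in the deletion group was 38.2% of wild type (95% interval 30.8 to 47.3), a log2 fold change of -1.39 (SE 0.13, edgeR adjusted p = 0.0253). The exact two-sided permutation p of 0.1 is the smallest that 3 against 3 libraries can give. The UBE3A call was lost without wild-type library 1 (adjusted p = 0.152 by edgeR) and without any one deletion library (0.0728 to 0.0886), with log2 fold changes of -1.51 to -1.33. Over all genes 26 were called higher and 123 lower in the deletion animals, and the median log2 fold change was 0.05.

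Levels of cell type markers differed between the groups in these whole-tissue libraries, in which fewer cells of a type and less RNA per cell cannot be told apart. Of 13 neuron markers in the files all 13 had a positive log2 fold change, 12 without overlap between the groups. Among all tested genes 56.7% were positive and 15.2% lay higher without overlap. The summed level of the neuron markers was 2347 to 6123 CPM in wild type and 8744 to 17945 CPM in deletion libraries. No neuron marker was called by edgeR, and 12 had an unadjusted p under 0.05, against 20.2% of all tested genes. DESeq2 called 8, against 3.6% of all genes called higher. limma voom called 1 higher, where it called 94 of all 14566 genes higher. Smooth muscle and pericyte markers summed to 1797, 3255 and 552 CPM in wild type and to 267, 202 and 266 CPM in deletion libraries. Of these markers 4 of 9 were called lower, against 0.844% of all tested genes. Meninges and fibroblast markers summed to 2423 to 3136 CPM in wild type and 369 to 636 CPM in deletion libraries, with 6 of 9 called lower, and Schwann cell markers to 882 to 4722 and 261 to 450 CPM, with 1 of 6 called lower. Astrocyte markers (20426 to 24440 against 20262 to 25972 CPM) and microglia markers (800 to 829 against 744 to 806 CPM) had median log2 fold changes of 0.26 and -0.10. No listed marker was at 0 in every library. Wild-type library 3 held the fewest neuron marker and smooth muscle reads of its group. Part of the animal numbers starts with 14 (1 animal per genotype) and part with 15 (2 per genotype), and the labels do not say what this prefix stands for.

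Of the 84 channel genes 68 passed the filter, 60 of them at or above its level of 0.47 CPM in all 6 libraries. The 16 others had at most 49 reads over the 6 libraries together, and KCNA10, KCNK17 and KCNV2 had none, where 3 reads in 1 library, the upper limit that a count of 0 allows, correspond to 0.133 to 0.175 CPM. These limits cover counting error only. The untested genes included both KCNV genes, KCNA7, KCNH7 and KCNH8 among the voltage-gated genes, KCNJ1 and KCNJ15, and 5 tandem-pore genes (KCNK7, KCNK9, KCNK15, KCNK16 and KCNK17). In RefSeq's annotation 25 of 83 matched channel genes overlap another gene, 12 of them a protein-coding one (KCNIP4 with PACRGL and KCNQ3 with HHLA1, for example). Strand use in the authors' counting was not given in the sources used here. These overlaps are of whole gene spans, introns included, and shared exons were not looked for. Whether reads of overlapping genes were mixed is therefore not known.

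By length-scaled level the glial inward rectifier KCNJ10, which clears extracellular potassium in astrocytes, came first with a mean of 292 TPM over the 6 libraries (188 to 384 TPM). It made up 26.1 to 39.6% of the summed TPM of all 84 genes and 74.5 to 81.4% of that of the inward rectifiers. The cytoplasmic axonal subunit KCNAB2 followed at 110 TPM, then KCNIP3, a calcium-binding partner of KCND channels, at 60.8 TPM, KCNAB3 at 37.6 TPM and the axonal channel KCNA1 at 29.7 TPM. In all, 19 genes had a mean of at least 10 TPM, 42 lay between 1 and 10 TPM and 23 lay under 1 TPM. The summed TPM of the voltage-gated genes was 124, 166 and 159 in wild type and 201, 251 and 271 in deletion libraries, so the groups did not overlap. That of the accessory genes was 248 ± 11.0 TPM in wild type and 317 ± 29.7 TPM in deletion animals (SD, n = 3), and that of the tandem-pore genes 49.3 ± 8.62 and 68.1 ± 5.29 TPM, both also without overlap. In summed CPM the tandem-pore groups nearly touched, at 59.9 to 83.6 CPM in wild type and 83.8 to 88.3 CPM in deletion libraries. The inward rectifiers summed to 338 ± 129 and 404 ± 50.8 TPM, with overlap. The calcium- or sodium-activated class, of KCNM and KCNN genes only, summed to 40.1 ± 22.0 TPM in wild type and 27.1 ± 1.54 TPM in deletion animals. These sums also overlapped, and KCNMB1 alone made up 1.21 to 66.4% of a library's sum.

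**Figure D1:**
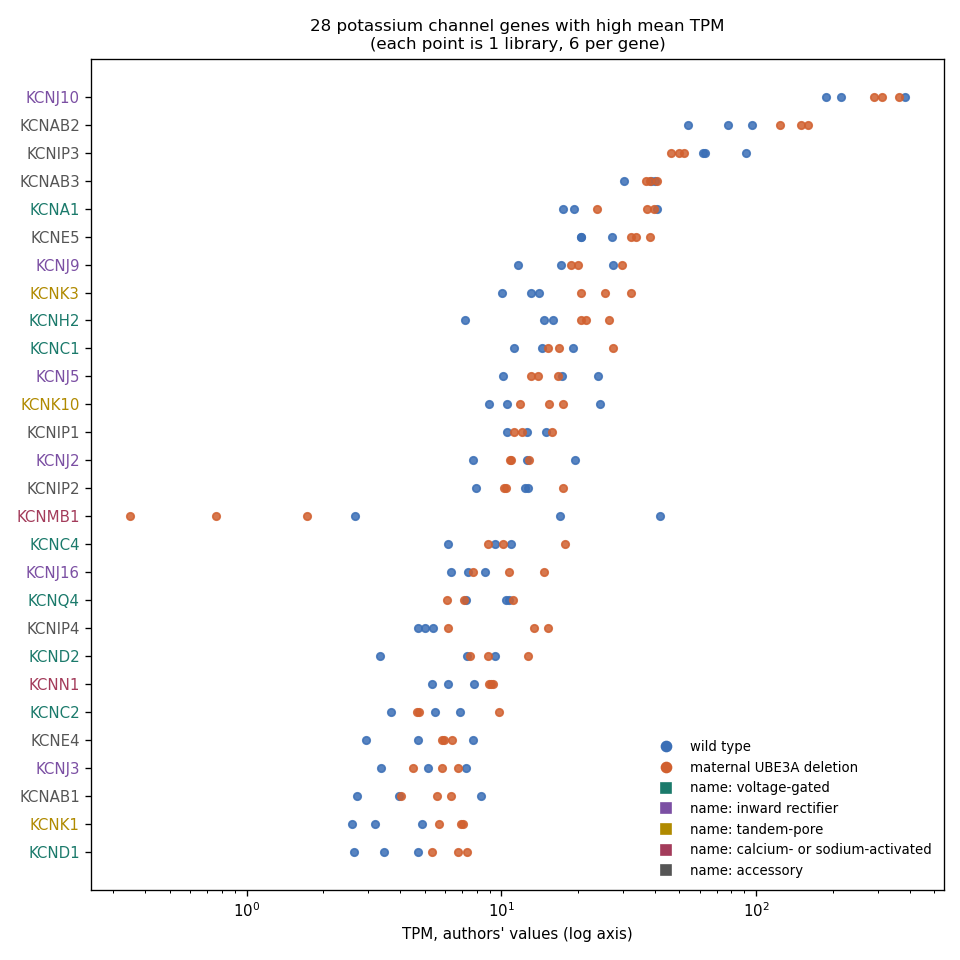
Level in TPM (log axis) of 28 channel genes with high mean TPM, 1 point per library, blue for wild type and orange for maternal deletion, with gene names coloured by class. KCNJ10 leads at a mean of 292 TPM, and the 6 points of KCNMB1 are the most widely spread.

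Comparison of the genotypes called 2 of the 68 tested channel genes higher in the deletion animals, KCNH6 and KCNS2, and none lower. The background over all tested genes was 1.02% called, 0.178% higher and 0.844% lower. At an unadjusted p under 0.05, which 20.2% of all tested genes reached, 19 channel genes were higher and 4 lower. All 3 deletion libraries lay above all 3 wild-type libraries for 22 channel genes, against 15.2% of all tested genes, and below them for 5, against 11.2%. The log2 fold change was positive for 55 and negative for 13 of the 68 (80.9% positive, against 56.7% of all tested genes), with a median of 0.44 against 0.05, and 0.21 without deletion library 3. Among the 68, KCNQ1 passed the filter through the wild-type libraries alone and so had to differ.

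By class, the median log2 fold change was 0.49 for the 31 voltage-gated genes tested (29 positive), 0.30 for 12 inward rectifiers (7 positive), 0.27 for 9 tandem-pore genes (6 positive), 0.46 for 6 calcium- or sodium-activated genes (5 positive) and 0.19 for 10 accessory genes (8 positive). Differences between the classes were not tested. Another 9 channel genes, 6 higher and 3 lower, had an adjusted p between 0.05 and 0.1, with KCNQ1, which had to differ, among the lower. Both calls lay just under the threshold, at the same edgeR adjusted p of 0.0497. Both calls were lost without any one library other than wild-type library 3 (edgeR adjusted p of 0.0822 to 0.208 for KCNH6 and 0.084 to 0.208 for KCNS2) and when the animal number prefix entered the fit (0.0897 and 0.0894). KCNH6 also missed the threshold with RLE scaling (0.0508) and limma voom (0.0707), and KCNS2 with total-count scaling (0.0532).

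**Figure D2:**
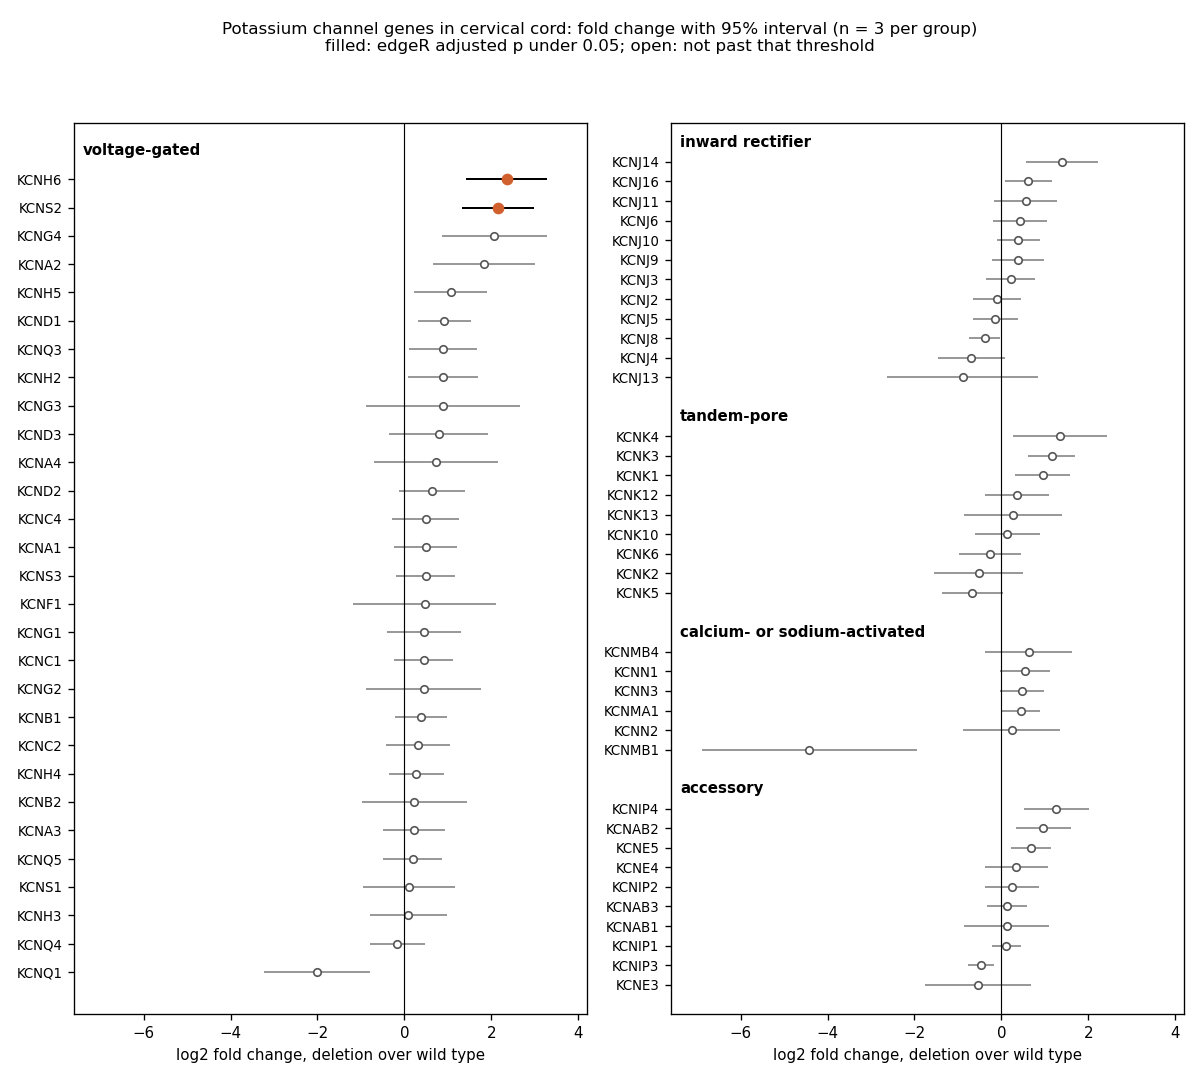
Log2 fold change of deletion over wild type with its 95% interval for 66 of the 68 tested channel genes by class (n = 3 per group), filled where the edgeR adjusted p was under 0.05. KCNH6 at 2.35 and KCNS2 at 2.16 are the 2 filled points, 27 of the 29 voltage-gated genes shown lie right of 0, and KCNMB1 lies farthest left at -4.42.

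The authors' table and DESeq2 called more channel genes than edgeR. At a false discovery rate (FDR) under 0.05 the authors' deposited table holds 13 channel genes as higher and 2 as lower, of 77 with a value, where 3.39% of all genes in that table were higher and 3.81% lower. DESeq2 on the same reads called 12 higher and 2 lower of 75 with an adjusted p, against 3.6% higher and 5.04% lower over all genes. Of the 15 and 14 genes 12 were shared, which rests on the same reads. KCNH2, KCNK4 and KCNQ1 were in the authors' deposited table alone, and KCNK1 and KCNIP3 in DESeq2's list alone. limma voom called 2 higher, KCNS2 among them, and none lower, where it called 94 higher and 344 lower of all 14566 genes.

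The largest rise of a voltage-gated gene was that of KCNH6 (ENSSSCG00000017295), an ether-a-go-go-related subunit of the family that repolarises cells after long depolarisations. It measured 1.70, 1.13 and 0.964 CPM in wild-type libraries against 7.09, 8.61 and 3.63 CPM in deletion ones. Every deletion library lay above every wild-type library, with deletion library 3 the lowest of its group. The fold change was 5.11 (95% interval 2.73 to 9.57), a log2 fold change of 2.35 (SE 0.39, edgeR adjusted p = 0.0497), and the authors' deposited table gives a fold change of 5.17 with an FDR of 5.41e-06. The ratio of group means was 4.17 between the animals numbered 14 and 5.85 among those numbered 15.

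Of the 7 ether-a-go-go genes, KCNH6 included, 5 were tested, all 5 with a positive log2 fold change and a median of 0.89. KCNH2, the gene of the cardiac repolarising channel that also limits firing in neurons, measured 28.7, 28.1 and 11.1 CPM in wild-type libraries against 37.9, 50.4 and 37.2 CPM in deletion ones. The groups did not overlap and wild-type library 3 was far below the rest, with a log2 fold change of 0.89 (SE 0.34, edgeR adjusted p = 0.201). KCNH5 measured 1.30 ± 0.233 CPM in wild-type animals against 2.73 ± 0.963 CPM in deletion ones (SD, n = 3), also without overlap. KCNH3 and KCNH4, of the branch that opens at more negative potentials, had log2 fold changes of 0.09 and 0.28 with overlapping groups.

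KCNS2 (ENSSSCG00000031917) encodes an electrically silent subunit that forms channels only together with KCNB subunits and slows their gating. Its level was 0.997, 0.955 and 1.47 CPM in wild-type libraries against 3.20, 6.45 and 5.70 CPM in deletion ones. The groups did not overlap, and the fold change was 4.46 (95% interval 2.54 to 7.83), a log2 fold change of 2.16 (SE 0.35, edgeR adjusted p = 0.0497). The ratio of group means was 3.20 between the animals numbered 14 and 5.02 among those numbered 15. A long non-coding RNA overlaps KCNS2 in the annotation.

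The silent subunits as a group had 8 of 10 genes tested, all with a positive log2 fold change and a median of 0.48, and KCNS2 alone was called. KCNG4, another silent partner of KCNB channels, measured 2.99, 4.34 and 1.06 CPM in wild-type libraries against 11.9, 16.5 and 6.91 CPM in deletion ones. Its groups did not overlap, and its log2 fold change of 2.07 (SE 0.51) missed the threshold (edgeR adjusted p = 0.0919). The other 6 silent subunits (KCNF1, KCNG1, KCNG2, KCNG3, KCNS1 and KCNS3) had overlapping groups, with log2 fold changes of 0.10 to 0.88 and edgeR adjusted p-values of 0.396 to 0.932.

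**Figure D3:**
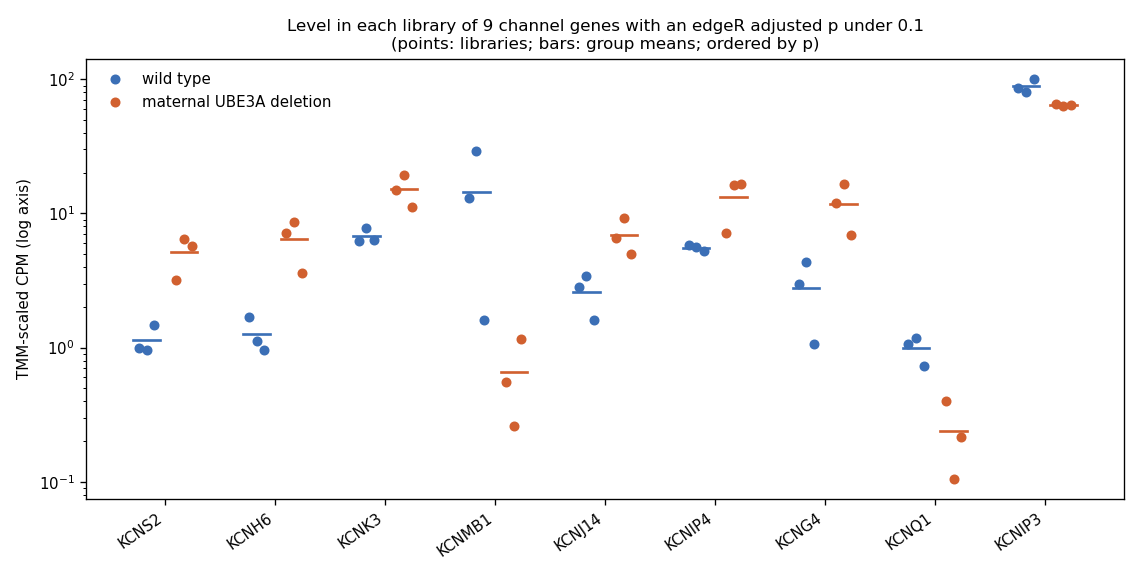
Level in CPM (log axis) in each library of 9 channel genes with an edgeR adjusted p under 0.1, points for libraries and bars for group means, blue for wild type and orange for deletion. KCNH6 and KCNS2 lie higher in each deletion library, KCNMB1 lies lower in each, and the wild-type values of KCNMB1 range from 1.61 to 29.0 CPM.

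The channels of fast-spiking neurons, encoded by the KCNC genes, repolarise the membrane fast enough for high firing rates. Among them KCNC1, KCNC2 and KCNC4 overlapped between the groups, with log2 fold changes of 0.45, 0.32 and 0.49.

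Channels of the node of Ranvier and the zone beside it made up a grouping of 7 tested genes, of which 6 had a positive log2 fold change, where 56.7% of all tested genes did, with a median of 0.97. All deletion libraries were higher for 5, against 15.2% of all tested genes. edgeR called none of the 7, and 5 had an unadjusted p under 0.05, against 20.2% of all tested genes. DESeq2 called 3 higher, against 3.6% of all genes. The authors' deposited table holds 4 as higher at an FDR under 0.05, against 3.39% of all genes in that table. KCNQ3 is a subunit of the M-current channel, which restrains repetitive firing and sits at axon initial segments and nodes. It measured 2.89 ± 0.317 CPM in wild-type animals against 5.35 ± 2.37 CPM in deletion ones (SD, n = 3), with no overlap (log2 fold change 0.89, SE 0.33, edgeR adjusted p = 0.186).

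KCNA1 and KCNA2 encode the channels beneath the myelin beside the node, which hold the axon at rest there, and KCNAB2 is their cytoplasmic subunit. KCNA2 measured 0.352, 1.43 and 1.24 CPM in wild-type libraries against 2.40, 4.04 and 4.62 CPM in deletion ones. The groups did not overlap, and the log2 fold change was 1.84 (SE 0.50, edgeR adjusted p = 0.103). KCNA1 measured 21.0, 17.1 and 34.9 CPM in wild-type libraries against 24.3, 42.2 and 36.0 CPM in deletion ones. Its groups overlapped, and the log2 fold change was 0.49 (95% interval -0.21 to 1.18, edgeR adjusted p = 0.433). KCNAB2 measured 132, 148 and 72.5 CPM in wild-type libraries against 199, 265 and 225 CPM in deletion ones. These groups did not overlap, with a log2 fold change of 0.97 (SE 0.26, edgeR adjusted p = 0.105).

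Tandem-pore channels complete the axonal set. KCNK4, a mechanosensitive leak channel found at nodes in rodents, measured 2.76, 2.34 and 0.918 CPM in wild-type libraries against 4.49, 7.50 and 3.41 CPM in deletion ones. These values did not overlap (log2 fold change 1.36, SE 0.46, edgeR adjusted p = 0.156). CATSPERZ overlaps KCNK4 in the annotation. The related nodal leak channel KCNK2 had the opposite sign, at 10.4 ± 4.21 CPM in wild-type animals against 7.18 ± 3.81 CPM in deletion ones (SD, n = 3), with overlapping groups (log2 fold change -0.52, edgeR adjusted p = 0.573).

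The voltage-gated genes KCND1 and KCNQ1 were singled out after their values were seen. KCND1, a pore subunit of the fast inactivating A-type current, measured 5.96 ± 1.68 CPM in wild-type animals against 11.3 ± 2.32 CPM in deletion ones (SD, n = 3), with no overlap (log2 fold change 0.92, SE 0.25, edgeR adjusted p = 0.105). KCNQ1, the channel of heart and epithelia, ran the other way, and long non-coding RNAs overlap it in the annotation. It had 18, 27 and 16 reads in wild type and 8, 2 and 5 reads in deletion libraries, which is 0.988 ± 0.227 and 0.240 ± 0.149 CPM. With so few reads the log2 fold change of -2.01 (SE 0.52) had an edgeR adjusted p of 0.0959. As KCNQ1 passed the filter through the wild-type libraries alone, its lower level was fixed in advance, and this p-value is no support for it. The authors' deposited table, from the same reads, gives a signed fold change of -3.97 with an FDR of 0.0343.

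Inward rectifiers held no called gene. Of 12 tested, 2 were higher and 1 lower at an unadjusted p under 0.05, near the 20.2% of all tested genes. DESeq2 called KCNJ14 alone, as higher, where it called 3.6% of all genes higher. KCNJ14, known from motor neurons of the rat brainstem, measured 2.82, 3.43 and 1.61 CPM in wild-type libraries against 6.59, 9.29 and 4.97 CPM in deletion ones. The groups did not overlap, and the log2 fold change was 1.40 (SE 0.35, edgeR adjusted p = 0.0914). Markers of motor neurons had positive log2 fold changes in 7 of 7 genes, where 56.7% of all tested genes did, with a median of 2.71. Their summed levels overlapped, at 150 to 279 CPM in wild type and 251 to 1060 CPM in deletion libraries. Among the 7, ISL1 passed the filter through the deletion libraries alone and so had to be higher. None of the 7 was called by edgeR, and 7 had an unadjusted p under 0.05, against 20.2% of all tested genes. DESeq2 called 4 higher, against 3.6% of all genes. The part of motor neuron RNA in the KCNJ14 difference was not tested.

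Glial channel genes were those of KCNJ10, its partner KCNJ16 and the astrocyte leak channel KCNK1. KCNJ10 measured 387, 399 and 623 CPM in wild-type libraries against 602, 585 and 663 CPM in deletion ones. Wild-type library 3 lay inside the deletion range, and the log2 fold change was 0.39 (95% interval -0.09 to 0.87, edgeR adjusted p = 0.351). KCNJ16 measured 21.6 ± 3.32 and 33.2 ± 9.18 CPM (SD, n = 3) with overlapping groups, and KCNK1 at 4.97 ± 1.68 and 9.63 ± 1.54 CPM without overlap, with log2 fold changes of 0.62 and 0.95 (edgeR adjusted p = 0.170 and 0.109). The G protein-gated channel genes KCNJ9 and KCNJ5, whose products carry slow inhibitory currents in neurons and heart, had overlapping groups and log2 fold changes of 0.38 and -0.14.

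KCNJ8 forms the ATP-sensitive channel of vessel mural cells together with ABCC9. Its level was 11.1, 10.2 and 11.3 CPM in wild-type libraries against 8.04, 8.34 and 8.60 CPM in deletion ones. The groups were tight and did not overlap, and the log2 fold change was -0.39 (SE 0.14, edgeR adjusted p = 0.183). ABCC9 itself had a log2 fold change of -0.79 (edgeR adjusted p = 0.204).

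In the tandem-pore class edgeR called none of 9 genes. At an unadjusted p under 0.05, 3 were higher and 0 lower, against 20.2% of all tested genes in either direction. DESeq2 called 2 higher, against 3.6% of all genes. KCNK3, an acid-sensitive leak channel known from motor neurons of rodents, measured 6.22, 7.81 and 6.38 CPM in wild-type libraries against 14.9, 19.5 and 11.2 CPM in deletion ones. Its groups did not overlap, and its log2 fold change of 1.16 (SE 0.23) came to an edgeR adjusted p of 0.0604, or 0.0357 with no filter on low counts. KCNK10, a relative of KCNK2 with the class's broadest wild-type range (21.5 to 51.4 CPM), had a log2 fold change of 0.13. KCNK5, singled out after its values were seen, measured 4.57 ± 1.61 CPM in wild-type animals against 2.86 ± 0.0991 CPM in deletion ones (SD, n = 3) with all deletion libraries lower (log2 fold change -0.67, edgeR adjusted p = 0.257). For the genes listed for microglia and blood cells, 3 of 5 were tested (KCNA3, KCNK6 and KCNK13), none had an unadjusted p under 0.05, and their log2 fold changes were 0.22, -0.26 and 0.27.

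KCNMB1 (ENSSSCG00000017005), the smooth muscle subunit that raises the calcium sensitivity of the large-conductance channel, had the lowest log2 fold change of all 68 genes. Its level was 13.0, 29.0 and 1.61 CPM in wild-type libraries against 0.549, 0.262 and 1.17 CPM in deletion ones, from 222, 669 and 35 reads against 11, 5 and 27. All deletion libraries lay below all wild-type libraries, but wild-type library 3 lay far nearer to the deletion range than to the other wild-type libraries. The log2 fold change was -4.42 (95% interval -6.86 to -1.97, edgeR adjusted p = 0.0887), and without wild-type library 3 it was -5.01 and called (edgeR adjusted p = 0.0106). The authors' deposited table gives a signed fold change of -21.5 with an FDR of 1.62e-10.

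The smooth muscle and pericyte markers had a median log2 fold change of -4.08. Their wild-type libraries had the same order as for KCNMB1, with 3255 CPM in library 2, 1797 CPM in library 1 and 552 CPM in library 3. The neuron, motor neuron, endothelium and Schwann cell sums had this wild-type order too, so it is not particular to smooth muscle. Among the deletion libraries 1, 2 and 3 KCNMB1 was highest in library 3, while the smooth muscle and pericyte sums were 267, 202 and 266 CPM. The part of vessel wall RNA in the KCNMB1 value was not tested. KCNMB1 and KCNIP1 overlap each other in the annotation, and KCNIP1 had a log2 fold change of 0.11 (edgeR adjusted p = 0.729). The pore gene of the same channel, KCNMA1, which neurons and muscle share, had the opposite sign, at 9.68, 11.0 and 9.46 CPM in wild-type libraries against 11.0, 16.4 and 13.8 CPM in deletion ones (log2 fold change 0.45, SE 0.18, edgeR adjusted p = 0.212), the nearest libraries of the groups both at 11.0. The small-conductance channel gene KCNN1 measured 6.08 ± 1.89 and 8.80 ± 0.400 CPM (SD, n = 3), with a log2 fold change of 0.54. Of the 3 genes listed for vessels, KCNJ8 and KCNMB1 were negative without overlap, and KCNE4, a subunit that inhibits KCNQ1, was positive at 0.35 with overlapping groups.

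Accessory genes held no edgeR call. Of 10 tested, 3 were higher and 1 lower at an unadjusted p under 0.05, against 20.2% of all tested genes in either direction. DESeq2 called 2 higher and 1 lower, against 3.6% and 5.04% of all genes. The KCNIP genes encode calcium-binding partners of KCND channels, and here 2 of them ran in opposite directions. KCNIP4 measured 5.81, 5.60 and 5.28 CPM in wild-type libraries against 7.19, 16.3 and 16.7 CPM in deletion ones. The wild-type values were close together and all deletion values lay above them (log2 fold change 1.27, SE 0.31, edgeR adjusted p = 0.0914).

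KCNIP3, which is also known as a calcium-dependent transcriptional repressor, measured 86.5, 80.0 and 101 CPM in wild-type libraries against 65.6, 63.7 and 64.3 CPM in deletion ones. Here all deletion values lay below the wild-type range, with a log2 fold change of -0.47 (SE 0.12, edgeR adjusted p = 0.0971). KCNE5, a small membrane subunit singled out after its values were seen, measured 3.45 ± 0.259 CPM in wild-type animals against 5.55 ± 0.212 CPM in deletion ones (SD, n = 3) with no overlap (log2 fold change 0.68, SE 0.19, edgeR adjusted p = 0.106). KCNAB3 overlapped between the groups with a log2 fold change of 0.13.

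Because the neuron markers as a group were higher in the deletion libraries, each channel gene was also set against them in the same library, a reading chosen after seeing the data. The mean log2 CPM of the neuron markers was 1.26 higher in the deletion group. Of the 11 channel genes with an edgeR adjusted p under 0.1, none was higher relative to that mean in all deletion libraries, and 8 overlapped. KCNMB1, KCNIP3 and KCNQ1, which passed the filter through wild type alone, were lower in all. KCNH6 lay 6.56 ± 0.50 log2 units under the neuron mean in wild type and 5.60 ± 0.59 units under it in deletion animals (SD, n = 3), a difference of 0.96. The same difference was 0.78 for KCNS2, 0.90 for KCNG4 and -0.14 for KCNK3. Over all 68 tested genes it was positive for 7 and negative for 61, with a median of -0.82, no gene higher in all deletion libraries and 28 lower in all. The same count was not made over all tested genes. Their median log2 fold change was 0.05, against the rise of 1.26 in the neuron mean. A negative relative value is therefore not particular to the channel genes. These relative values were not tested.

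**Figure D4:**
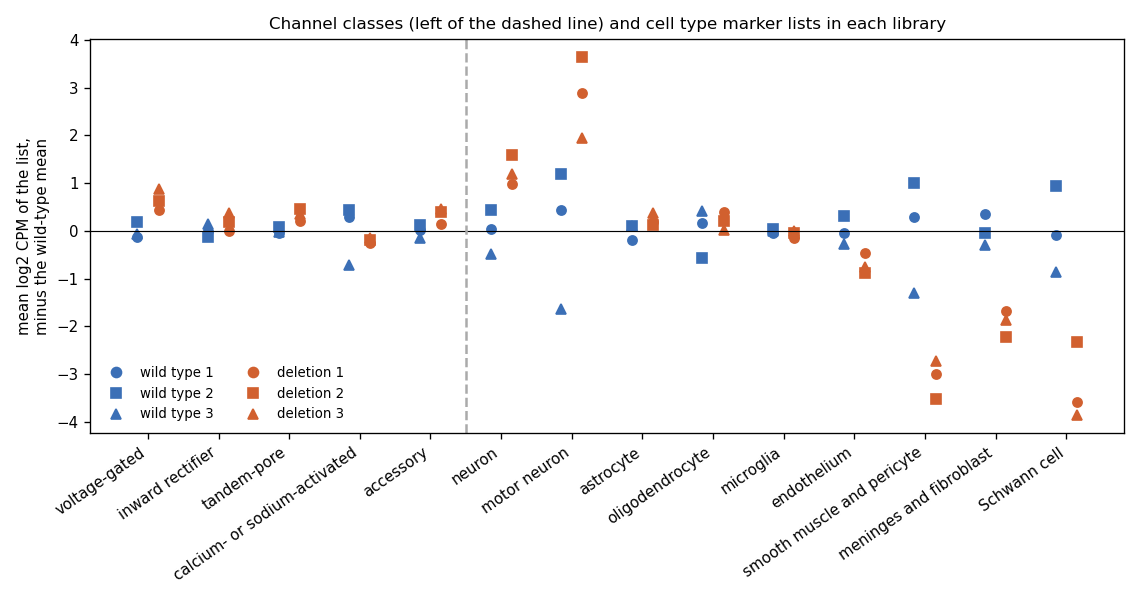
Mean log2 CPM of the genes of each channel class (left of the dashed line) and of each marker list (right), 1 symbol per library, with the mean of the wild-type libraries set to 0. The voltage-gated, tandem-pore and accessory classes and the neuron, motor neuron and astrocyte lists lie higher in every deletion library than in any wild-type library, the accessory class and the astrocyte list by narrow margins. The endothelium, smooth muscle and pericyte, meninges and fibroblast, and Schwann cell lists lie lower in every deletion library.

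Of the listed partners of potassium channels, such as scaffolds, peptidase-like subunits and regulators, 19 of 20 in the files were tested. Of these 1 was called higher and 0 lower, against 0.178% and 0.844% of all tested genes. Their median log2 fold change was 0.43, against 0.05 over all tested genes. At an unadjusted p under 0.05 there were 6 higher, the called gene among them, and 1 lower, against 20.2% of all tested genes. RGS7, which speeds the closing of G protein-gated inward rectifiers, measured 28.0, 26.9 and 23.0 CPM in wild-type libraries against 41.4, 48.4 and 40.8 CPM in deletion ones. The groups did not overlap, and RGS7 rose with a log2 fold change of 0.75 (SE 0.13, edgeR adjusted p = 0.0497), a call lost under the same left-out libraries as those of KCNH6 and KCNS2 (0.0912 to 0.208) and under each other scaling tried (0.0508 to 0.0689). DPP6, a membrane partner of KCND channels, went from 49.7 ± 9.78 to 83.0 ± 11.4 CPM and the scaffold DLG4 from 58.2 ± 13.9 to 94.7 ± 13.5 CPM (SD, n = 3), with edgeR adjusted p-values of 0.0824 and 0.112.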

How the data were processed

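Poly(A) RNA of flash-frozen tissue was sequenced as stranded paired-end libraries, per the labels' protocols. Aligner, counter, annotation and build were not given in the sources used here. The authors deposited raw exon read counts per gene for each library, and beside them RPKM and TPM values, of which TPM was used for levels between genes. A signal column headed CPM, which per the file headers is the authors' scaled value, was not used. In the authors' deposited comparison table the fold change is a signed score, and its p-values and FDR come from a test that is not stated.

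Counts were fitted with edgeR 4.0.16 in R 4.3.3 (TMM scaling, filterByExpr, quasi-likelihood test of genotype, 3 against 3 libraries, 14566 genes, threshold 0.05 after Benjamini-Hochberg adjustment). The p-values measure the spread between 3 animals per genotype. Total counts of 17181003 to 22492366 per library set the precision of low genes. Every pair of libraries differed by more than sampling noise. Alternatives were other scalings (RLE, total count, upper quartile), other filters, DESeq2 1.42.0, limma 3.58.1 (voom with quality weights), a term for the animal number prefix, the animals numbered 15 alone and each library left out.

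The members and lists were chosen with earlier results of these data known. Named are called members, in each class the 3 with the smallest p and the 3 with the highest mean TPM, the tested members of each grouping (43 genes in all), and of the partners the called gene and the 3 with the smallest p. Another 4 genes given with their tests (KCNQ1, KCND1, KCNE5 and KCNK5) were added after their values were seen. Some genes under this rule are not reported here, though all entered the fits and counts. Genes overlapping each other were taken from RefSeq (Sscrofa11.1), whose coordinates are not printed because the files' build is not given.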

Additional observations from a re-analysis of the deposited data

How the results depend on the processing

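Of 720 values of the 48 named genes over 15 alternatives, 660 kept direction and side of the threshold. Most of these genes were not called in the main fit, so staying on that side says little about them. In 27 values a call was lost, all of them of KCNH6, KCNS2 or RGS7, the named genes called in the main fit. In 14 values a call was gained, and in 19 the sign turned. Called channel genes, 2 higher and 0 lower, became 12 and 2 with DESeq2, 1 higher with RLE and with total-count scaling, 0 with the prefix term and with the animals numbered 15 alone, and 0 to 2 higher and 0 to 1 lower with 1 library left out. Over all genes the 26 higher and 123 lower became 565 and 792 with DESeq2, 94 and 344 with limma voom, 0 and 3 with the prefix term, and 0 and 0 with the animals numbered 15 alone (1608 at an unadjusted p under 0.05). The higher genes numbered 9 with RLE, 6 with total-count scaling and 77 with no filter. With 1 library left out the counts were 0 to 120 higher and 0 to 639 lower, the highest without wild-type library 3. UBE3A kept its direction, at -1.39 with the prefix term (edgeR adjusted p = 0.0526), -1.44 with the animals numbered 15 alone (0.358) and -1.51 to -1.33 with 1 library left out.

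With 1 library left out the median log2 fold change was 0.21 to 0.50 over the channel genes, 0.032 (without deletion library 3) to 0.34 for accessory, 0.097 (without deletion library 3; 0.11 without wild-type library 1) to 0.38 for inward rectifier, 0.28 (without wild-type library 3) to 0.52 for calcium- or sodium-activated and 0.019 (without wild-type library 1) to 0.52 for tandem-pore genes (0.10 with the animals numbered 15 alone). Signs of small differences turned: KCNH3 to -0.0097 and KCNJ5 to 0.035 with limma voom, and KCNK10 to -0.16, KCNK13 to -0.22, KCNK2 to 0.10 and KCNS1 to -0.20 with the animals numbered 15 alone. With 1 library left out the ranges were -0.029 to 0.40 (KCNA3), -0.12 to 0.30 (KCNAB3), -0.11 to 0.55 (KCNC2), -0.58 to 0.92 (KCNF1), -0.21 to 0.23 (KCNH3), -0.35 to 0.00095 (KCNJ5), -0.11 to 0.52 (KCNK10), -0.12 to 0.56 (KCNK13) and -0.14 to 0.43 (KCNS1). No scaling moved the median of all genes by over 0.1. The causes were not tested. The labels pair no animal of one genotype with one of the other, so the animal number prefix was the only block fitted. Few reads limit the genes under 1 CPM, such as KCNQ1.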
